A study of Mus musculus with 12 samples.

Results

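The baseline of unstressed hearts was described by comparing sham-operated hearts of Bcl-xL S14A knock-in (KI) mice with sham-operated hearts of wild-type (WT) mice. These were 6 of the 12 hearts in the series, chosen by their labels for genotype and surgery: 3 WT sham hearts, named W1, W2 and W3, and 3 KI sham hearts, named K1, K2 and K3. In the other 6 hearts, transverse aortic constriction (TAC), a banding of the aorta that loads the left ventricle with pressure, replaced the sham operation. All hearts were taken 9 h after surgery, and their poly(A)-selected RNA was sequenced. Values are deposited as RPKM, reads scaled to the length of a gene's exons and to the size of the library, for 13552 genes, and the sham libraries held 23653500 to 32454916 reads on genes.

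Both groups were labelled as C57BL/6 strain, with genotypes Wild-type and Bcl-xL S14A KI mutant, and per the methods were males operated on at 8 to 10 weeks of age. The labels do not give zygosity, and the study states that it used homozygous KI mice after its first experiments. According to the methods, KI mice descended from R1 embryonic stem cells, lost their selection cassette through a CMV-Cre cross and were then backcrossed to C57BL/6J for more than 8 generations, whereas WT mice were bought as C57BL/6J. The knock-in allele, its flanking chromosome and the breeding origin therefore cannot be told apart in this comparison. Nothing in the labels ties the mice to litters or surgery days.

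Bcl2l1 encodes Bcl-xL, a protein of the outer mitochondrial membrane and the endoplasmic reticulum that holds Bax and Bak in check and binds IP3 receptors, the channels that release calcium from the endoplasmic reticulum. Phosphorylation of its serine 14 weakens such contacts, and alanine at that position cannot be phosphorylated. The comparison asks how alike the hearts of both genotypes were before pressure was raised, in a tissue whose RNA is dominated by contractile and mitochondrial genes.

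The site of the knock-in is shown because it sets what the RNA level of Bcl2l1 can check. Codon 14 lies in exon 2 of 3 exons of the Bcl2l1 transcript, at chr2:152829949-152829951 on the minus strand of GRCm38. The reference reading frame from the start codon to codon 20, read from the GENCODE transcript, has that codon in capitals:
Bcl2l1: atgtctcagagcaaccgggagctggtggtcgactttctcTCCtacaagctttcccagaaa
A change of 1 codon does not remove the transcript, so the level of Bcl2l1 does not check the genotype label. Bcl2l1 stood at 7.04, 14.2 and 15.4 RPKM in W1, W2 and W3 and at 6.67, 19.1 and 16 RPKM in K1, K2 and K3. The genotypes overlapped fully, with 1 low heart in each, and the log2 fold change of KI over WT was 0.13 ± 0.40 (SE, n = 3 mice per group; adjusted p = 1.000, limma).

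Between the genotypes, 2 of the 11240 genes tested passed a Benjamini-Hochberg adjusted p of 0.05 in limma, 0.0178% of them. Both, Gm14267 and Gm6334, are annotated as pseudogenes and were higher in KI hearts. At an unadjusted p under 0.05 stood 37 genes, or 0.329% of those tested, a share below 5% in a fit whose spread came from all 12 hearts. From the spread of the 6 sham hearts alone, 83 genes had an unadjusted p under 0.05, also a share below 5%, and 5 passed the adjusted threshold. The 3 hearts of each genotype did not overlap in 368 genes, 3.27% of those tested, of which 234 were higher and 134 lower in KI hearts. With 3 mice against 3, an exact permutation test of a single gene could not go below p = 0.1.

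The middle 95% of all log2 fold changes lay between -0.22 and 0.27 on the log2(RPKM + 1) scale, which understates the change of low genes. For 96.8% of genes the 95% interval of the difference on that scale lay within 2-fold in either direction. That share says how tightly the data bound a difference on that scale, which a missed p does not. For low genes the bound on RPKM itself is looser, and this holds for the intervals of the lists below too. An absolute log2 fold change of 1 or more was seen in 11 genes, and one of 0.5 or more in 57.

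Pairs of hearts of different genotype and pairs of 1 genotype covered overlapping ranges of likeness. Taken over genes within each pair, and thus not over replicates, Pearson's r of log2(RPKM + 1) ran from 0.9719 to 0.9907 among WT pairs, from 0.9619 to 0.9866 among KI pairs and from 0.9669 to 0.9943 between genotypes. The closest pair of all was W3 and K3, of different genotype, with a median absolute difference of 0.097 log2 units. The least alike were K1 and K2, of the same genotype, at 0.30 log2 units, with 3.55% of genes more than 2-fold apart.

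A principal component analysis of the sham hearts placed single hearts apart before it placed the genotypes apart. Component 1 held 49.1% of the variance, with W1 at 22.63 and K2 at 20.92 on one side and K1 at -21.28 on the other. Component 2 held 26.7% and set W1 (15.04) and K1 (18.87) apart from the other four hearts (-10.72 to -7.06). In neither did the genotypes part. Only component 4, with 9.18% of the variance, put all KI hearts (-5.66 to -4.59) below all WT hearts (-3.0 to 13.24).

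**Figure D1:**
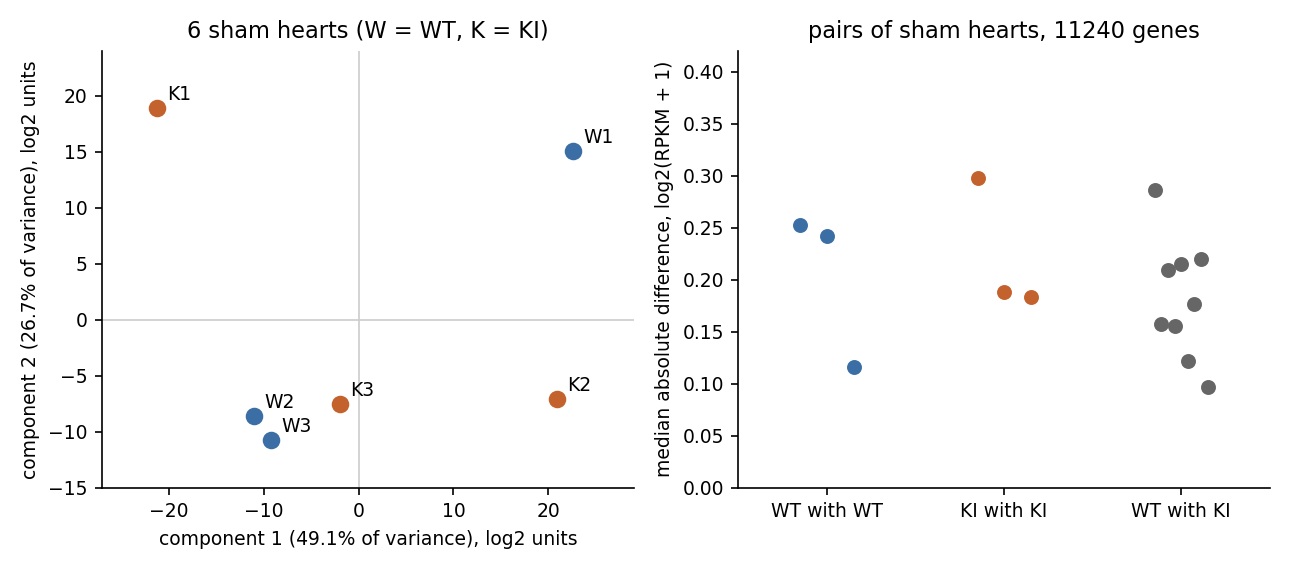
Left, the 6 sham hearts on principal components 1 and 2 of log2(RPKM + 1) over 11240 genes, in log2 units (WT blue, KI orange). Right, each point is the median absolute log2 difference of 1 pair of hearts, grouped as WT with WT, KI with KI and WT with KI; the lowest point, 0.097, is a pair of different genotype.

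What separated the hearts on component 1 followed transcript length and base composition. The 500 genes that loaded highest, towards W1 and K2, had a median exon length of 1648 bases and 54.9% GC, and the 500 that loaded lowest had 8400 bases and 45.6% GC, against 4282 bases and 50.6% GC over all genes tested. Component 2 showed little of this, with 3945 and 3975 bases at its ends. The giant sarcomere gene Ttn took 0.450% and 0.456% of the reads in W1 and K2 but 0.866% to 1.11% in the other four hearts. The part of transcript length and GC content in the comparison of the genotypes was not tested.

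Of the 32 functional lists, 28 had a median log2 fold change within 0.1 of zero. Without W1 these were 21, without K1 22, and with mice 2 and 3 of each genotype only, a choice made after the values were seen, 15. Their 770 tested genes held none past the adjusted threshold in limma, 6 at an unadjusted p under 0.05 and 25 without overlap of the genotypes, which is 3.25% beside 3.27% over all genes. All members had an interval within 2-fold in 15 lists. The median over all genes was 0.01.

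Mitochondrial energy supply, which fills a large part of a heart cell, showed wide spread between mice and small differences between the genotype means. All 36 nuclear subunits of respiratory complex I had an interval within 2-fold, from Ndufa3 at -0.16 to Ndufa11 at 0.11 (log2 fold changes). So did all 25 subunits of complexes II to IV (median 0.01) and all 15 of ATP synthase (median -0.01). Relative to the mean of the 6 hearts, the complex I list stood at 0.37, -0.18 and -0.18 log2 units in W1, W2 and W3 and at -0.39, 0.45 and -0.07 in K1, K2 and K3. The highest and the lowest heart were thus both KI. Cytosolic ribosomal proteins, which build the ribosome, had the same hearts at their ends, at 0.35 in W1, 0.45 in K2 and -0.36 in K1, and all 79 had an interval within 2-fold around a median of -0.01. These medians near zero rested on W1 and K1, which lay on opposite sides. Without both mice the median was 0.37 for complex I, 0.35 for ATP synthase and 0.33 for ribosomal proteins.

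In the 18 genes of the TCA cycle the median was -0.03, and in the 23 of glucose uptake and glycolysis it was -0.03 too. Both were positive without W1 (0.037 and 0.084), without K1 (0.096 and 0.11) and without both (0.16 and 0.24). Hk2, the hexokinase that commits glucose to use in muscle, was the lowest of that list, with 69.9, 62.5 and 67.1 RPKM in WT hearts and 46.2, 61.9 and 53.8 RPKM in KI hearts (log2 fold change -0.30 ± 0.22, SE). These values did not overlap, yet the interval included no difference.

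The 30 genes of fatty acid uptake and oxidation had a median of 0.02 (0.16 without W1 and K1) and held 2 genes without overlap, Pdk4 and Ucp3. Pdk4 encodes the kinase that shuts pyruvate out of oxidation and is induced by fasting and fatty acids. It stood at 28.4, 51.3 and 66.4 RPKM in W1, W2 and W3 and at 180, 104 and 133 RPKM in K1, K2 and K3. Every KI heart lay above every WT heart, and the log2 fold change was 1.54 ± 0.64 (SE; adjusted p = 1.000, limma). Ucp3, a mitochondrial carrier that rises with fatty acid use, read 18.1, 22.1 and 21.7 RPKM in WT and 58.9, 33.2 and 38.2 RPKM in KI hearts (1.00 ± 0.39). Angptl4, a secreted inhibitor of lipoprotein lipase and a member of the glucocorticoid-responsive list, read 1.21, 0.824 and 2.09 RPKM in WT and 8.26, 4.52 and 4.35 RPKM in KI hearts (1.48 ± 0.52). All 3 genes are known targets of PPAR nuclear receptors, were without overlap and had an unadjusted p under 0.05, and none passed the adjusted threshold. In TAC hearts the log2 fold change of KI over WT was 2.62 for Pdk4 (adjusted p = 0.0237, limma) and 1.5 for Ucp3 (adjusted p = 0.0287, limma), and 1.29 for Angptl4, which missed the threshold (adjusted p = 0.114, limma).

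Contractile genes were close over the 6 hearts. The 19 sarcomere genes tested had a median of 0.03, with 17 intervals within 2-fold. That median was 0.073 without W1, 0.068 without K1 and 0.11 without both. Myh7, the slow myosin heavy chain of the fetal and the loaded heart, read 39.0, 145 and 42.6 RPKM in W1, W2 and W3 and 26.5, 33.2 and 33.5 RPKM in K1, K2 and K3. W2 alone was high, the genotypes did not overlap, and the log2 fold change was -0.99 ± 0.44 (SE; adjusted p = 1.000, limma). Without W2 it was -0.39. Myh6, the fast myosin that makes up most of the adult mouse thick filament, stood at 4836, 4169 and 3341 RPKM in WT and 3267, 3043 and 3522 RPKM in KI hearts (-0.31 ± 0.26). Of the transcript of Myh7, 36.1% of the 25-base stretches also occur in Myh6, so that reads between them can be lost or shared.

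The hypertrophy markers, genes that rise in a loaded heart, spread widely inside each genotype. Nppa, the atrial natriuretic peptide, read 65.3, 24.7 and 61.2 RPKM in WT and 41.1, 65.2 and 27.1 RPKM in KI hearts. Nppb, the brain natriuretic peptide, read 292, 55.1 and 115 RPKM in WT and 156, 112 and 64.5 RPKM in KI hearts. Acta1, skeletal alpha-actin, read 160, 115 and 116 RPKM in WT and 360, 138 and 110 RPKM in KI hearts, with K1 alone high. Their log2 fold changes were -0.15 ± 0.53, -0.24 ± 0.48 and 0.45 ± 0.52 (SE), all with overlap. Each turned direction in some fits with 1 heart left out. The interval of each reached beyond 2-fold, so a difference of that size is not bounded here. In the list of 14 such markers, 9 intervals lay within 2-fold.

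Calcium cycling genes had a median of 0.06, with 19 of 20 intervals within 2-fold. The exception was Trdn, a protein of the calcium release complex, at 0.54 (95% interval -0.16 to 1.23), and Jph2, which ties that complex to the cell membrane, was without overlap at -0.16. All 20 genes of IP3 receptors and Gq signalling had an interval within 2-fold (median 0.00), as had all 20 of calcineurin and NFAT (median -0.03) and all 20 Bcl-2 family members tested, Bcl2l1 among them (median 0.03). Without W1 and K1 the medians were -0.17 for IP3 receptors and Gq signalling, -0.071 for calcineurin and NFAT and 0.10 for the Bcl-2 family. Without K1 alone that of the Bcl-2 family was -0.05 and that of calcineurin and NFAT -0.069. Itpr2, the main IP3 receptor of cardiomyocytes, read 1.65 to 3.01 RPKM in WT and 1.86 to 3.04 RPKM in KI hearts. Rcan1, the calcineurin inhibitor used as a readout of calcineurin activity, read 34.3, 16 and 20.9 RPKM in WT and 24.3, 22.6 and 20.4 RPKM in KI hearts (-0.01 ± 0.38). Bax, the pore-forming partner of Bcl-xL, was the highest of its list at 0.29 ± 0.22, with overlap. In the Ras-ERK list 26 of 27 intervals lay within 2-fold (median -0.01, or -0.10 without K1), and Hras and Mapk3 stood at -0.01 and 0.10. Atp2a2, the calcium pump of the sarcoplasmic reticulum, read 3050 to 3950 RPKM in WT and 3055 to 3377 RPKM in KI hearts.

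The lists whose median left zero were those of mitochondrial-genome transcripts (0.23, 8 of 12 higher in KI hearts), collagens and matrix (0.22, 29 of 35 higher), interferon response and antigen presentation (0.11, 33 of 36 higher) and immediate early genes (0.11, 19 of 24 higher). No member passed the adjusted threshold in limma, and beyond Isg15 and mt-Atp6 none had an unadjusted p under 0.05. Over all genes 5919 of 11240 were higher in KI hearts. In the mitochondrial-genome list, mt-Co2, mt-Co3, mt-Atp6 and mt-Nd3 share 98.1% or more of their 25-base stretches with copies on chromosome 1. Its median and its count are therefore uncertain.

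The size of the mitochondrial, matrix and immediate early shifts depended on single hearts. Immediate early genes stood at 0.23 in K1, and their median was 0.01 without K1. The mitochondrial-genome list stood at -0.66 log2 units in W1 and between 0.03 and 0.24 in the other five hearts, and its share of reads was 6.36% in W1 and 10.1% to 12.5% elsewhere. Without W1 its median was -0.08. Collagens and matrix stood at 0.49 in K1, 0.13 in W1 and -0.23 to -0.09 elsewhere, and the median was 0.04 without K1, 0.38 without W1 and 0.16 without both. Col1a1, the main fibrillar collagen, read 104, 50.6 and 41.2 RPKM in W1, W2 and W3 and 130, 74.7 and 64.4 RPKM in K1, K2 and K3 (0.50 ± 0.55). Postn, a matrix protein of activated fibroblasts, read 1.13 to 1.79 RPKM in WT and 4.90, 1.87 and 2.41 RPKM in KI hearts, without overlap (0.61 ± 0.67). The fibroblast marker list shares Col1a1 with the matrix list and so is no separate observation. In it 10 of 12 members were higher in KI hearts (median 0.19, or 0.08 without K1, 0.25 without W1 and 0.20 without both). Its summed level was 607 to 907 RPKM in WT and 666 to 803 RPKM in KI hearts. In whole tissue, more cells of a type and more RNA per cell cannot be told apart.

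Interferon genes stood higher in W1 and K2 (0.22 each) than in W2 and W3 (-0.22 and -0.21), with K1 and K3 between. Their median was 0.25 without W1, 0.17 without K1 and 0.29 without both. Isg15, a ubiquitin-like interferon-induced protein, led the list at 1.11, 0.782 and 1.16 RPKM in WT and 1.75, 2.59 and 1.67 RPKM in KI hearts (0.56 ± 0.20; adjusted p = 1.000, limma). The genotypes did not overlap in 5 of the 36 genes, all higher in KI hearts, beside 3.27% over all genes.

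Defining markers of heart muscle were abundant, with Tnnt2 at 265 to 375 RPKM in WT and 231 to 454 RPKM in KI hearts. The cardiomyocyte list had a median of 0.04, which was 0.15 without W1, 0.22 without K1 and 0.40 without both. Endothelial (median 0.05), macrophage (0.02), atrial (-0.05, 6 of 12 markers tested) and Schwann cell (0.10, 5 of 10 tested) lists had medians of 0.10 or less in size over the 6 hearts. Without W1 the endothelial median was 0.11 and that of macrophages 0.13, and without K1 the atrial median was 0.11. Smooth muscle and pericyte genes stood lower in KI hearts in 10 of 12 (-0.06), with a median of -0.16 without K1 and -0.20 without both. Erythroid genes, a sign of blood left in the tissue, stood higher in KI hearts in 6 of 6 tested (0.33), with K1 and K2 at 0.43 and 0.31 and K3 at -0.26, and their median was 0.16 without K1. Their part in other results was not tested. Only 1 of 13 lymphocyte, 2 of 12 adipocyte, 2 of 12 skeletal muscle and 2 of 11 epicardial markers could be tested, and the 5 of 10 neutrophil markers summed to at most 2.19 RPKM.

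The remaining lists had medians near zero over the 6 hearts. All members had an interval within 2-fold among the 34 proteasome genes (median 0.02), 25 genes of autophagy and mitophagy (-0.03), 24 antioxidant genes (-0.03), 32 genes of integrins, laminins and focal adhesion (0.04), 27 cardiac ion channels (0.01) and 10 genes of creatine kinase and the energy shuttle (0.02). So had 16 of 17 genes of the intercalated disc (0.02), 19 of 20 of the unfolded protein response (-0.04), 19 of 20 cardiac transcription factors (0.01) and 16 of 17 chemokines and cytokines (-0.03). The Z-disc and cytoskeleton list (0.04) had 17 of 23 and the heat shock proteins (0.01) had 16 of 23. Of the 23 heat shock proteins 4 did not overlap, 3 higher and 1 lower in KI hearts, beside 3.27% of all genes. With mice 2 and 3 only, medians of several of these lists left zero, at 0.27 for creatine kinase and the energy shuttle, 0.20 for the proteasome, 0.16 for autophagy and mitophagy, -0.15 for cardiac transcription factors and 0.12 for antioxidant genes. The median of integrins, laminins and focal adhesion turned to -0.095 without K1, and that of the unfolded protein response turned to 0.097 without W1.

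**Figure D2:**
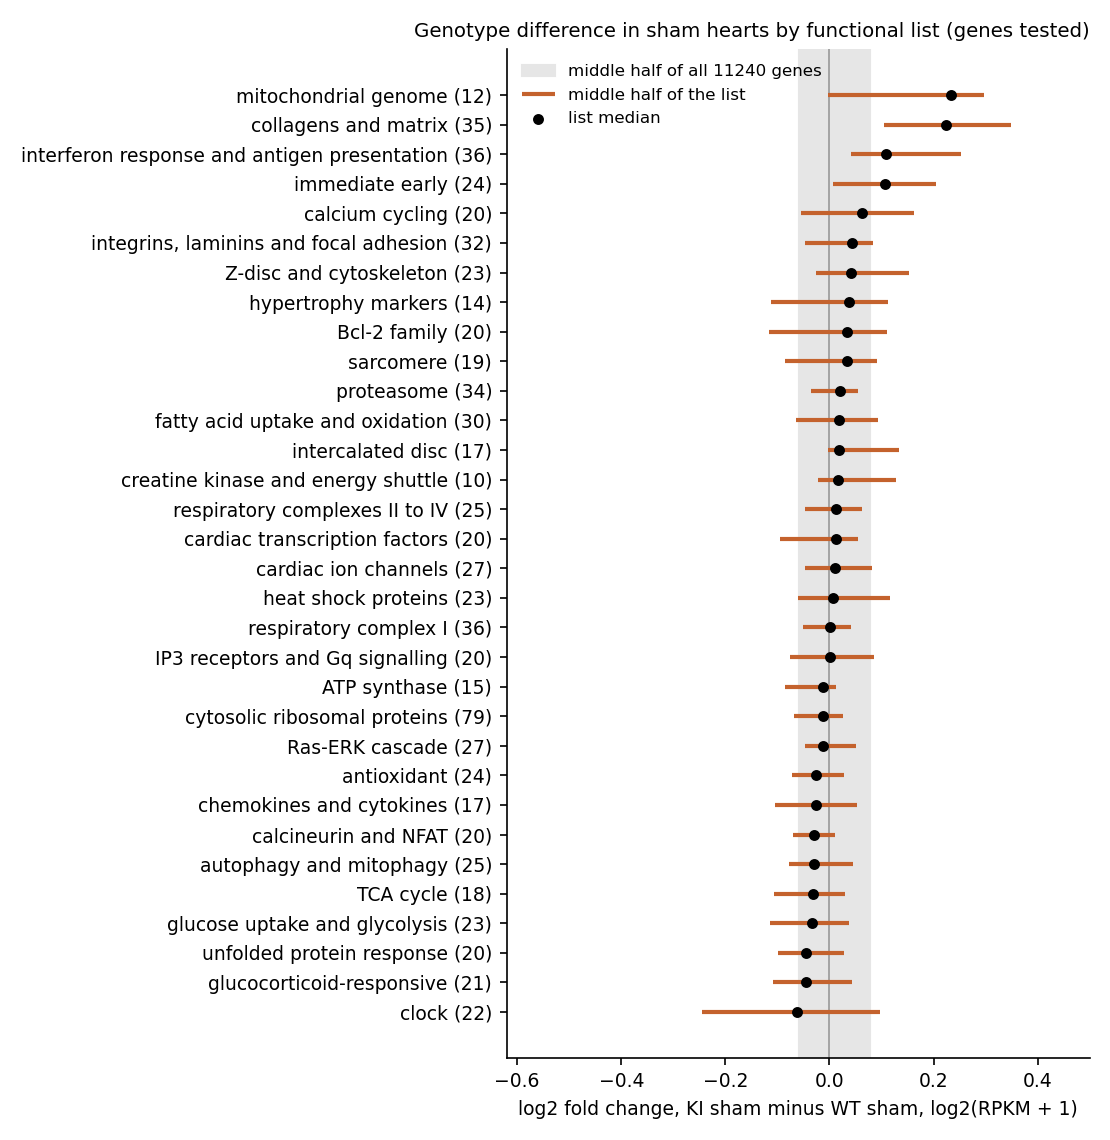
For each of 32 functional lists (number of genes tested in brackets), the median log2 fold change of KI sham over WT sham (black point) and the interquartile range of its genes (orange line), beside the interquartile range of all 11240 genes (grey band). Mitochondrial-genome genes at 0.23 and collagens and matrix at 0.22 lie farthest from zero.

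The most abundant transcripts were nearly the same in both genotypes. Of the 20 nuclear features with the highest mean RPKM, WT and KI hearts shared 19, with Atp5b in the WT list and Tcap in the KI list as the exceptions, and of the top 100 features they shared 95. Within all 6 hearts taken singly, 14 features were always in the top 20. None of the 20 separated the genotypes without overlap or passed the threshold, and their log2 fold changes ran from -0.82 to 0.15. Of the 100 most abundant features, 92 had an interval within 2-fold.

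Actc1, cardiac alpha-actin, was the highest nuclear gene, at 10941, 9956 and 8276 RPKM in W1, W2 and W3 and 11587, 11457 and 8953 RPKM in K1, K2 and K3. Myh6 followed among protein-coding genes, then Atp2a2 and Mb, the oxygen-binding myoglobin, at 2416 to 3536 RPKM in WT and 2065 to 3966 RPKM in KI hearts. Myl2 and Myl3, the ventricular myosin light chains, read 1531 to 3107 and 794 to 1612 RPKM over the 6 hearts. Mybpc3, which regulates the myosin heads, read 1059 to 1649 RPKM.

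The rest of the list was energy supply and protein synthesis. Cox6a2 and Cox4i1, subunits of cytochrome oxidase, read 1139 to 2950 and 582 to 1433 RPKM. Slc25a4, the ADP/ATP carrier, ran from 874 to 1577 RPKM and Fabp3, the heart fatty acid-binding protein, from 720 to 1571 RPKM. For Mb, Myl2, Cox6a2, Cox4i1, Slc25a4 and Fabp3 the lowest heart was K1 and the highest K2, so the full range of these transcripts was found within KI mice. Atp5a1 and Atp5b of ATP synthase, the elongation factors Eef1a2 and Eef2 and the small heat shock protein Hspb7 completed the list of protein-coding genes.

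Features that do not encode protein stood among the 20 too, namely Gm23935 and Mir6236, annotated as miRNAs, the ribosomal RNA CT010467.1 and the pseudogene Gm12896. All 4 were highest in W2, where CT010467.1 reached 7149 RPKM against 813 to 3685 RPKM in the other five hearts. CT010467.1 shares 66.8% of its 25-base stretches with Gm42418, so such reads cannot be assigned with certainty.

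Mitochondrial-genome transcripts were counted apart. mt-Co1, subunit 1 of cytochrome oxidase, was the highest feature of all, at 17427, 28303 and 30899 RPKM in W1, W2 and W3 and 27225, 25388 and 25444 RPKM in K1, K2 and K3. In mt-Co1, 53.7% of the 25-base stretches also occur in Gm13340 on chromosome 2, so some of its reads can be lost or shared. mt-Cytb and mt-Nd1, of complexes III and I, ran from 8801 to 17569 and from 9251 to 16185 RPKM. W1 was the lowest heart for all 3 genes. mt-Co2 and mt-Co3, encoded beside mt-Co1, read only 18.8 to 60.8 and 14.3 to 145 RPKM, and mt-Atp6 only 4.34 to 16.2 RPKM. For these, 99.5%, 99.9% and 99.5% of the 25-base stretches also occur in single pseudogenes on chromosome 1, so their levels, and the unadjusted p of 0.0143 of mt-Atp6 in limma, are uncertain.

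**Figure D3:**
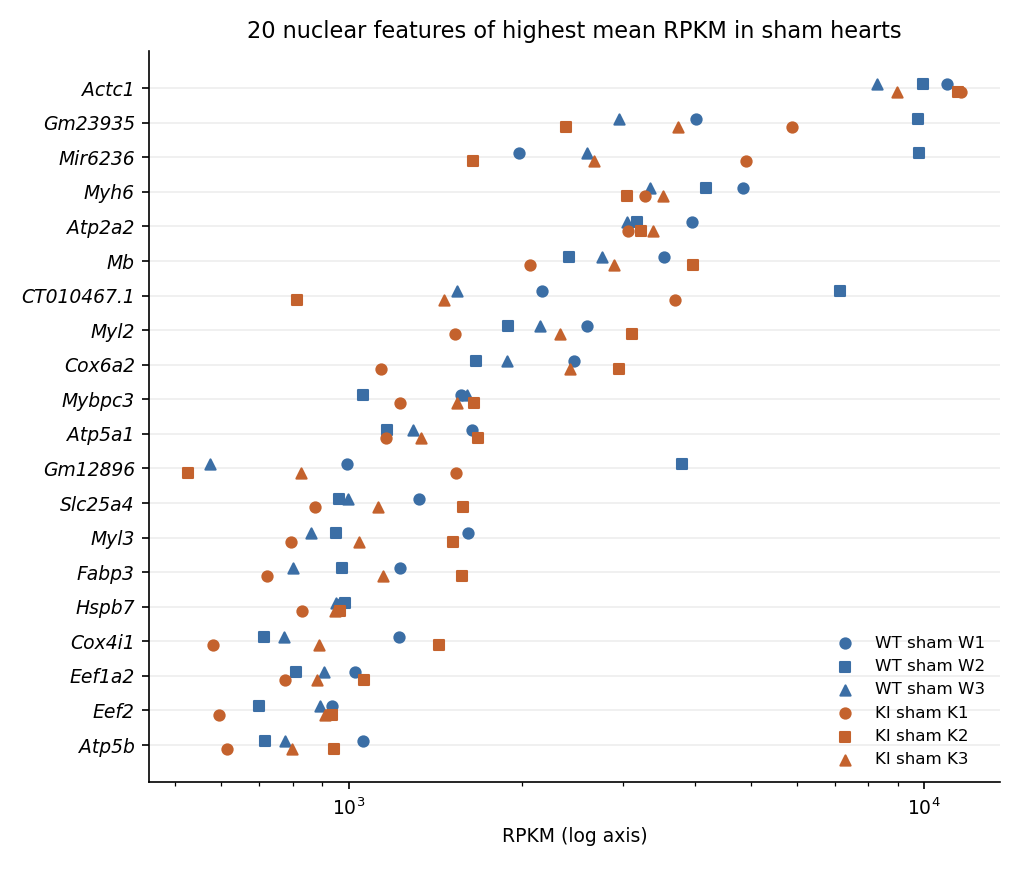
RPKM (log axis) of the 20 nuclear features with the highest mean over the sham hearts, 1 marker per heart (WT blue, KI orange). Actc1 leads at 8276 to 11587 RPKM, and the WT and KI markers of every feature overlap.

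Chromosome 2, which carries Bcl2l1 (chr2:152780668-152831728, GRCm38), held the most genes with a low p. Of the 37 genes with an unadjusted p under 0.05, 10 lay among the 895 genes tested on chromosome 2 (1.12%), 6 among 529 on chromosome 6 (1.13%) and 4 among 350 on chromosome 16 (1.14%). The mitochondrial genome had the highest share, with 2 of 18 genes (11.1%), mt-Atp6 and mt-Tp. All 10 on chromosome 2 started within 35 Mb of Bcl2l1, a window chosen after their values were seen. It held 1 of 43 genes within 2 Mb and 9 of 379 genes from 2 to 35 Mb, beside 0 of 473 farther away. Without overlap of the genotypes were 6 of 43 genes within 2 Mb (14%) and 29 of 379 from 2 to 35 Mb (7.65%). Farther out these were 14 of 473 (2.96%), and on all other chromosomes 319 of 10345 (3.08%).

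Gm14267, a transcribed processed pseudogene 13.72 Mb beyond Bcl2l1 (chr2:166500036-166522373), stood at 0.484, 0.375 and 0.571 RPKM in W1, W2 and W3 and at 3.93, 3.22 and 3.61 RPKM in K1, K2 and K3. These were 121 reads in WT and 978 in KI hearts, and the log2 fold change was 1.63 ± 0.12 (SE; adjusted p = 3.36e-05, limma). The TAC hearts, which are other mice, showed the same order, at 0.225 to 0.395 RPKM in WT and 1.53 to 1.91 RPKM in KI hearts. Gm14261, a noncoding transcript that overlaps the start of Sall4 on the opposite strand, read 2.87, 2.45 and 2.40 RPKM in WT and 6.32, 6.14 and 6.27 RPKM in KI hearts (1.02 ± 0.16; adjusted p = 0.0933, limma). Since the strand setting of the counting is not given, its reads and those of Sall4 cannot be told apart with certainty.

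Among protein-coding genes of the chromosome, Cdh22, a cadherin, had the largest difference, at 3.51, 2.07 and 3.42 RPKM in WT and 0.575, 1.89 and 1.59 RPKM in KI hearts (-0.79 ± 0.25). Mgme1, a nuclease that maintains mitochondrial DNA, read 5.4, 5.17 and 4.89 RPKM in WT and 3.93, 3.51 and 3.14 RPKM in KI hearts (-0.44 ± 0.15). Lcmt2, an enzyme of tRNA modification, read 7.95 to 9.84 RPKM in WT and 6.42 to 7.08 RPKM in KI hearts (-0.36 ± 0.15). None of these passed the adjusted threshold in sham hearts. In TAC hearts Cdh22 (-0.92, adjusted p = 0.0343), Mgme1 (-0.60, adjusted p = 0.0263) and Lcmt2 (-0.68, adjusted p = 0.0168) passed it in limma in the same direction. Mkks, a chaperonin-like protein, and Sulf2, a sulfatase of heparan sulfate, stood higher in KI sham hearts without overlap (0.44 each), short of the adjusted threshold, and were lower in KI TAC hearts (-0.56 and -1.0, adjusted p = 0.0481 and 0.0115, limma). Mkks shares 29.2% of its 25-base stretches with AL731706.1, so its counts are uncertain.

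Of the 10 genes on chromosome 2, 8 kept their direction between genotypes in TAC hearts and 6 passed the adjusted threshold there in that direction. Of all 37 genes 28 kept their direction and 14 also passed, where 50.6% of all genes had the same direction in both comparisons and 11.0% passed between KI TAC and WT TAC hearts in either direction, 5.86% of all genes in the direction they had in sham hearts. Gm14267, Gm6334, Gm18234 and Gm20056 reached 1 RPKM in KI hearts only, and so passed the filter on low values through the genotype where they are high. Without them, 24 of 33 genes kept their direction and 11 also passed, and on chromosome 2 these were 7 and 5 of 9. The sham and TAC comparisons share no mouse, although 1 estimate of spread served both.

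The 43 genes within 2 Mb had a median log2 fold change of -0.01 and ran from Pygb, brain glycogen phosphorylase, at -0.51 to Tcf15, an endothelial transcription factor, at 0.45. Pygb read 408, 309 and 366 RPKM in WT and 210, 259 and 293 RPKM in KI hearts, without overlap (SE 0.25; adjusted p = 1.000, limma). Slc52a3, a riboflavin transporter, was the one gene of these with an unadjusted p under 0.05, at 1.09 to 1.57 RPKM in WT and 0.591 to 0.946 RPKM in KI hearts (-0.42 ± 0.16).

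**Figure D4:**
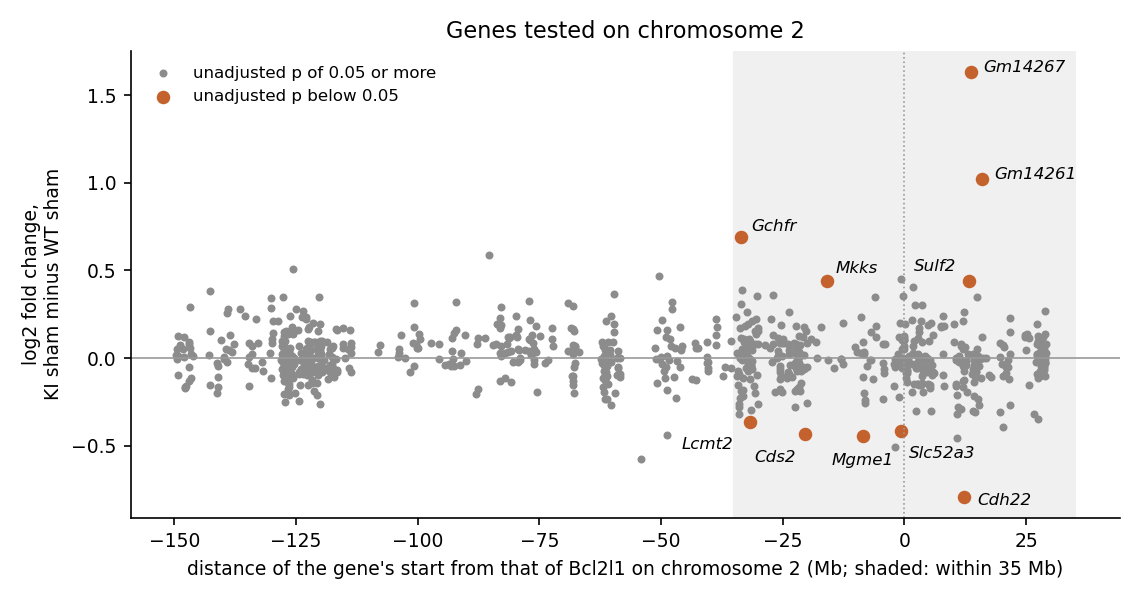
Log2 fold change of KI sham over WT sham for the 895 genes tested on chromosome 2 against the distance of each gene's start from that of Bcl2l1 in Mb; orange points have an unadjusted p under 0.05. All 10 orange points lie within the shaded 35 Mb on either side.

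Some genes that separated the genotypes on other chromosomes shared sequence with genes of that region. Gm6334, the second gene past the threshold, is a processed pseudogene on chromosome 8 (chr8:4778042-4778269). It stood at 0, 0 and 0.179 RPKM in W1, W2 and W3, a single read in all, and at 6.28, 12.1 and 10.1 RPKM in K1, K2 and K3, 193 reads in all. The ratio of KI to WT reads, scaled to library size, was 178 (exact 95% counting interval 31.6 to 7065), and the fitted log2 fold change was 3.27 ± 0.29 (SE; adjusted p = 1.35e-04, limma). TAC hearts showed the same order, at most 0.336 RPKM in WT and 8.83 to 22.2 RPKM in KI hearts.

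Among the other genes of the annotation, Gm6334 resembled Pkig most, the gene of an inhibitor of protein kinase A that lies 10.88 Mb beyond Bcl2l1 on chromosome 2. Both reference sequences are shown so that their likeness can be seen. Capitals mark the bases that differ, and lower case those that are identical:
Gm6334: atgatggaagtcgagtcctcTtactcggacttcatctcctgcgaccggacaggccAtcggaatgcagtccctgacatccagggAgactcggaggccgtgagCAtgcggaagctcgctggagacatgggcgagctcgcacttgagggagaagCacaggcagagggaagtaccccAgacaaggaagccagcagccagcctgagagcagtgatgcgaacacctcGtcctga
Pkig: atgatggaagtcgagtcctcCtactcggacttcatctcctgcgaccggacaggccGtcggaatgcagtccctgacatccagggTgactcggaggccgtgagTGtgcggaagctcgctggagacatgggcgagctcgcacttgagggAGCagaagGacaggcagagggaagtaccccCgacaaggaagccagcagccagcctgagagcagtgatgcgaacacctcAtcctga
Of 231 aligned positions 220 were identical, 8 were mismatched and 3 fell in a gap, and the longest identical run was 47 bases. Pkig itself read 45.6, 32.9 and 30.7 RPKM in WT and 21.4, 32.6 and 24.9 RPKM in KI hearts (-0.45 ± 0.21), with overlap.

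On chromosome 16, Gm18234 had no read in any WT heart and 31, 35 and 54 reads in K1, K2 and K3 (1.21, 1.10 and 1.58 RPKM), at least 36.9-fold higher against a floor of 3 reads over the WT group. Its closest match was Zfp106, a zinc finger gene at -32.27 Mb from Bcl2l1, with only 11.0% of its 25-base stretches shared. Gm20056 had 4, 3 and 0 reads in WT and 20, 28 and 37 reads in KI hearts, a ratio of 11.2 (exact 95% counting interval 5.20 to 28.7), and its closest match was Chp1, a calcium-binding partner of sodium-proton exchangers, at -33.23 Mb from Bcl2l1 with 53.5% shared. Among the KI TAC hearts K5, K6 and K7, both were at 0.243 RPKM or less in K6 and at 1.22 to 5.68 RPKM in K5 and K7. That left K6 at the level of WT hearts for these 2 pseudogenes, while its Gm6334 stood at 22.2 RPKM.

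Zfp106 read 64.1 to 92.7 RPKM in WT and 72.2 to 112 RPKM in KI hearts, and Chp1 20.9 to 24.3 RPKM in WT and 17.8 to 20.1 RPKM in KI hearts. Gm4737, annotated as protein-coding on chromosome 16, was too low for the filter used here. It had no read in WT hearts and 29, 52 and 45 reads in KI hearts, at least 38.7-fold higher, and passed when all 13552 genes were tested (adjusted p = 7.04e-04, limma). It shares 94.1% of its 25-base stretches with Ahcy, the gene of S-adenosylhomocysteine hydrolase 2.28 Mb beyond Bcl2l1.

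Since Gm6334, Gm18234 and Gm20056 passed the filter only through KI hearts, their number is no support for a pattern. Gm6652, a copy of Sord at -30.55 Mb from Bcl2l1, lay on chromosome 1 and had a log2 fold change of 0.01, with overlap. Whether the KI mice differ from the reference in these stretches was not tested, since reads were not analysed here.

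Some genes off chromosome 2 had a low p without such a match. Alox5, arachidonate 5-lipoxygenase, read 9.22, 9.64 and 6.17 RPKM in WT and 4.29, 4.94 and 5.79 RPKM in KI hearts (-0.62 ± 0.22). Lgals4, a galectin, read 10.8 to 14.7 RPKM in WT and 16.1 to 22.5 RPKM in KI hearts (0.63 ± 0.26). Retnla, a secreted protein of alternatively activated macrophages, read 2.96, 1.98 and 1.09 RPKM in WT and 3.62, 3.10 and 3.24 RPKM in KI hearts (0.57 ± 0.21), and in TAC hearts the difference was 1.04 (adjusted p = 0.0103, limma). The remaining protein-coding genes with the 10 highest or 10 lowest moderated t were Kbtbd12 (0.80) and Gstp2 (-0.41) on other chromosomes and Gchfr (0.69) and Cds2 (-0.44) on chromosome 2, all short of the adjusted threshold. Gstp2 shares 71.4% of its 25-base stretches with Gstp1, so its reads are uncertain.

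Genes that varied most among sham hearts were ranked by their pooled SD within genotype of log2(RPKM + 1), among 5647 genes with a mean of at least 5 RPKM. Over all tested genes the median SD was 0.171 in WT sham and 0.183 in KI sham hearts, beside 0.211 in WT TAC and 0.235 in KI TAC hearts. The 25 genes named had an SD of 0.84 or more, and 8 predicted genes or pseudogenes ranked among them were passed over. The last of them, Lingo3, stood at 0.841, and the next gene, mt-Rnr2, at 0.831. The ranking chose these genes, so their values are a description. None passed between the genotypes.

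A first set followed the pair W1 and K1. They were the 2 lowest for 8 of the 25 genes and the 2 highest for 7. Over all genes tested they were the 2 lowest for 5.22% and the 2 highest for 12.2%. Bcl2l1 was low in both, as its values above show.

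Zbtb16, a zinc finger repressor induced by glucocorticoids, read 5.44, 34.4 and 37.8 RPKM in W1, W2 and W3 and 3.49, 28.9 and 41.6 RPKM in K1, K2 and K3. Per2, a repressor of the circadian clock, read 6.47, 26.3 and 24.8 RPKM in WT and 3.91, 17.9 and 25.6 RPKM in KI hearts. Wee1, a cell cycle kinase under clock control, read 22, 110 and 74 RPKM in WT and 21, 65.6 and 78.9 RPKM in KI hearts. In all 3 genes W1 and K1 lay below each of the other hearts. Fmo2, Adh1, Map3k6, Rhobtb1 and Arrdc2 had W1 and K1 as the lowest hearts too, with highest-to-lowest ratios of 3.69 to 10.5.

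On the opposite side, Slc41a3, a magnesium transporter, read 60.7 and 78.6 RPKM in W1 and K1 and 13.5 to 15.9 RPKM in the other four hearts. Nr1d1, the clock repressor REV-ERB alpha, read 83.9 and 53.5 RPKM in W1 and K1 and 16.5 to 29.9 RPKM elsewhere. Fbn1, the microfibril protein fibrillin, read 11.4 and 24.7 RPKM in W1 and K1 and 3.61 to 5.32 RPKM elsewhere. Klhdc8a, Nppb and Lingo3 shared that order. So did Cul3 by rank alone, since its K1 value (15.4 RPKM) barely passed that of K3 (15.3 RPKM).

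The glucocorticoid-responsive list followed the same hearts, at -0.53 log2 units in W1 and -0.31 in K1 and between 0.15 and 0.28 in the other four. Fkbp5, a cochaperone of the glucocorticoid receptor, read 1.30 and 1.07 RPKM in W1 and K1 and 4.42 to 5.42 RPKM elsewhere. Fam107a, an actin-binding stress protein, read 0.836 and 0.740 RPKM in them and 3.87 to 9.09 RPKM elsewhere. Tsc22d3, the glucocorticoid-induced leucine zipper, read 16.6 and 17.0 RPKM in them and 25.8 to 33.1 RPKM elsewhere. Not all members followed. Sgk1 (10.9 to 13.6 RPKM) and Per1 (24.9 to 35.5 RPKM), both known glucocorticoid targets, lay close together in the 6 hearts. Klf9, a transcription factor of the list, was lowest in W1 (74.9 RPKM) but second highest in K1 (174 RPKM), and Pdk4 was lowest in W1 and highest in K1. Between genotypes the list had a median of -0.05, which was -0.17 without W1 and 0.26 without K1.

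Clock genes had the lowest median of the 32 lists, at -0.06 (-0.17 without W1 and 0.06 without K1). They did not place W1 and K1 together as a list, at -0.01 in W1 and -0.33 in K1. Dbp, a clock output factor, read 135 RPKM in W1 and 25.4 RPKM in K1, the highest and lowest of the 6 hearts. Arntl, the clock activator BMAL1, read 0.765 and 2.04 RPKM in W1 and K1 and 0.132 to 0.337 RPKM in the other hearts. Time of day of collection was not analysed here.

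Other genes were set apart by 1 heart. Ogdhl, a relative of oxoglutarate dehydrogenase, had the largest SD of the 25 (2.0), below the pseudogene Ndufa12-ps (2.13) that was passed over, with 2.46 RPKM in W2 and 72.7 to 106 RPKM in the other five hearts. Cul3, the scaffold of a ubiquitin ligase, read 61.7 RPKM in W1 and 12.9 to 15.4 RPKM elsewhere, K1 included. Enho, the secreted peptide adropin, read 58.8 RPKM in W1 and 7.26 to 17.6 RPKM elsewhere. Inmt, a methyltransferase, read 0.384 RPKM in K1 and 4.99 to 7.92 RPKM elsewhere. Tcap and Xirp2, both of the Z-disc region, varied in opposite directions, from 314 RPKM in K1 to 1397 RPKM in K2 for the short Tcap and from 4.65 RPKM in W1 to 29.3 RPKM in K1 for the long Xirp2. The noncoding RNAs CT010467.1, Mir6236 and Rn7sk and the mitochondrial mt-Co3 were all highest in W2.

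**Figure D5:**
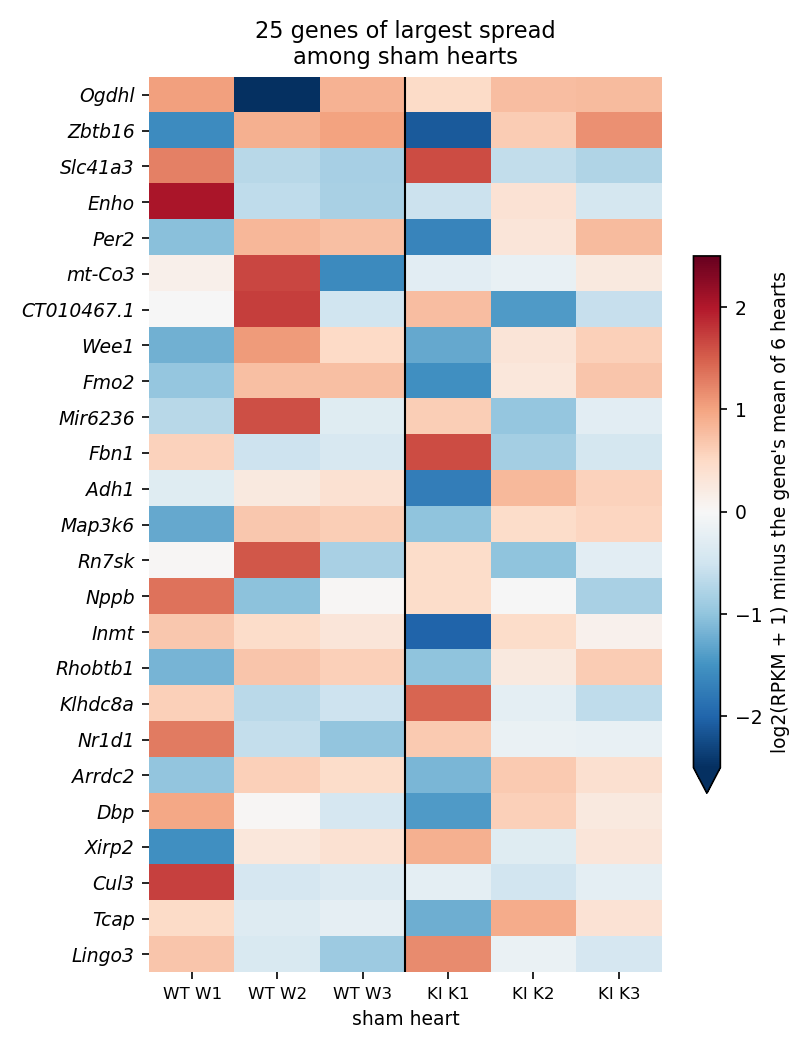
For the 25 genes with the largest pooled SD among sham hearts, log2(RPKM + 1) in each heart minus the gene's mean of the 6 hearts (red above, blue below; the line parts WT from KI). Zbtb16, Per2 and Wee1 are low, and Slc41a3, Nr1d1 and Fbn1 high, in both W1 and K1; Ogdhl is low only in W2.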

How the data were processed

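The authors deposited RPKM values for each mouse. Per the submitters' processing notes, Trimmomatic (0.39), HISAT2 (2.2.1), HTSeq (0.6.1), edgeR (3.18.1), limma (3.32.10) and R (4.1.1) were used with GRCm38. Per the methods the annotation came from Ensembl, where the release stated and the file names given carry different numbers. The strand setting of the counting is not given in the sources used here. Libraries came from poly(A)-selected RNA by a strand-specific protocol.

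Genes with at least 1 RPKM in at least 3 of the 12 mice were tested on log2(RPKM + 1) with limma (3.58.1, with a trend of the spread on the mean level, R 4.3.3) in 1 model of 4 groups, with Benjamini-Hochberg adjustment over all genes tested and a threshold of 0.05. Intervals are 95% intervals of the fitted difference. Read counts were recovered from the RPKM steps and the GENCODE M21 exon lengths, and 96.2% to 98.0% of low values came out whole within 0.05 reads. The median gene tested had a mean of 637 reads per sham heart. Intervals on read ratios cover counting error only. Sequences came from GENCODE M21 on GRCm38 and were aligned with Biopython 1.88, and 13546 of 13552 genes matched it. Tables and plots used Python 3.11.15, numpy 2.4.6, pandas 2.3.3, scipy 1.17.1 and matplotlib 3.10.9.

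On simulated data with 200 of 11024 genes changed, the test of KI sham against WT sham recovered 65.4% of 2-fold and 97% of 4-fold changes. Of its calls 3.68% were false. The changed genes were drawn from genes with many reads, genes varied independently of each other, and TAC hearts were given the spread of sham hearts. The real hearts shared patterns over many genes and TAC hearts spread more, so these rates were not tested for the real comparison. P-values measure the spread between the mice sampled.

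Named genes were Bcl2l1 and hypertrophy markers, genes past the threshold, the 10 protein-coding genes with the highest and the 10 with the lowest moderated t, the 20 most abundant nuclear features, the 25 most variable genes with a mean of at least 5 RPKM, and the leading and extreme members of each list. Others were added to show a list or a sequence match and were chosen after their values were seen. The hearts, lists and tests were chosen with earlier results of these data known.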

Additional observations from a re-analysis of the deposited data

How the results depend on the processing

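Over 15 alternative settings, 403 of 419 log2 fold changes of 28 named genes kept their direction and their side of the threshold. Of 675 medians of 45 lists, 655 moved by less than the spread between mice. That spread is a wide yardstick. With mice 2 and 3 only, 1 of these settings, the functional lists with a median within 0.1 of zero fell from 28 to 15 of 32. From 88.2% to 98.0% of genes had an interval within 2-fold, and 17 to 24 of the 25 most variable genes remained among the 25. With any 1 sham heart left out, 2 genes passed the threshold each time and 93.4% to 94.7% had an interval within 2-fold. With at least 10 reads required in every sham heart, 1 gene passed, since that filter removes Gm6334. In a fit of the 6 sham hearts alone 5 passed, and with limma-voom on the recovered reads 2 passed.

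With the replicate block added to the fit of the 6 sham hearts alone, 0 genes passed in limma and 82 had an unadjusted p under 0.05. Gm14267 then had an adjusted p of 0.0933 and Gm6334 one of 0.0773 (limma). No label says that a number marks a shared litter or day. For want of such a label the numbers were not taken as pairs. The deviations of same-numbered mice correlated at -0.225, -0.302 and 0.440 over genes. These values cannot exclude a shared day or litter, since they follow the patterns that most genes share. W1 and K1 stood apart together on component 2. By these deviations W1 correlated best with K2 and W2 with K1.

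Directions turned for 5 genes whose genotypes overlapped. With 1 heart left out, Acta1 ran from -0.0625 to 0.79, Bcl2l1 from -0.20 to 0.55, Nppa from -0.59 to 0.16, Nppb from -0.81 to 0.38 and Rcan1 from -0.25 to 0.28. Turned values were -0.0625 for Acta1 without K1. For Bcl2l1 they were -0.20 without W1, -0.15 without K2 and -0.023 without K3. For Nppa they were 0.10 without W1, 0.052 without W3 and 0.16 without K3. For Nppb they were 0.38 without W1 and 0.11 without K3, and for Rcan1 0.28 without W1 and 0.049 without K3. With mice 2 and 3 of each group only, a setting chosen after seeing the data, Nppa stood at 0.11, Nppb at 0.10 and Rcan1 at 0.22, and 2 genes passed. The cause of these turns was not tested. Gm18234, Gm6334 and Gm20056 had 0, 1 and 7 reads over all WT sham hearts, which limits the precision of their ratios.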
